A study of Mus musculus with 2 samples.

Results

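Collagen is modified at several steps on its way to a fibre, and 10 genes whose products carry out or assist those steps were followed here. They are Lox, Loxl1, Loxl2, Loxl3, Plod2, P4ha1, P4ha2, P4ha3, Serpinh1 and Bmp1, taken by symbol from the 32285 genes of the count matrices, and each symbol matched 1 gene. The cells came from bowel and mesenteric adipose tissue, the fat along the bowel, of mice of the genotype given as B6/C57, aged 8 to 12 weeks. One library held cells of mice that had undergone colotomy, in which the colon is cut open, and the other held cells of mice that had undergone a sham operation, both on postoperative day 14. Each library pooled both tissues, marked beforehand with hashtag antibodies, and the number of animals behind it is not given in the sources used here. With 1 library for each operation, every difference below is a difference between 2 libraries, with no replicate and no test of the operation.

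In the rough endoplasmic reticulum, prolyl 4-hydroxylases modify prolines of the procollagen chain so that the triple helix is stable at body temperature, and lysyl hydroxylases modify lysines that later form crosslinks. The chaperone HSP47 binds the folded triple helix and leaves it in the Golgi. Outside the cell, proteases trim the propeptides, and enzymes of the lysyl oxidase family oxidise lysines and hydroxylysines so that neighbouring molecules become covalently joined. Fibroblasts are the main collagen producers of the gut wall and of the fat around it, and crosslinking by this route is a recognised feature of scar tissue.

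The colotomy library held 12002711 gene UMIs (counted molecules) over 15547 barcodes and the sham library 74006762 over 44814. After filtering, 9246 and 42143 cells remained, with a median of 778.5 and 1328 UMIs per cell, and 108 kept barcodes occurred in both libraries. Cells were clustered without the 10 genes and without any collagen gene, and clusters were named by markers. Fibroblast-like cells numbered 3537 of the colotomy cells (38.3%) and 5407 of the sham cells (12.8%), and their markers were present, led by Dcn at 8882 and 6868 CPM (UMIs scaled to 1000000 gene UMIs of the class). Hashtag 1, which the submitters pair with bowel, took at least 0.75 of the hashtag UMIs in 87.2% of colotomy cells and 0.263% of sham cells. The hashtag of mesenteric adipose tissue did so in 0.173% of colotomy cells and 26.1% of sham cells. The remaining 12.6% of colotomy cells and 73.7% of sham cells were mixed. Cells marked as bowel were thus almost all in the colotomy library, and cells marked as fat almost all in the sham library. The mark did not follow tissue in the sham library. Of its 2119 epithelial-like cells, a cell type of the bowel, 0.378% had the bowel hashtag, 19.9% that of fat, and 79.8% were mixed. Sham cells marked as fat can therefore not be taken as cells of fat. Bowel and fat were therefore not separated within a library, and a difference in tissue cannot be told apart from the operation. Xist, transcribed from the inactive X chromosome, stood at 496 CPM in colotomy and 1.49 CPM in sham fibroblast-like cells, and 4 Y-linked genes summed to 166 and 205 CPM, so both libraries held male cells and the colotomy library held female cells as well.

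In both libraries the 10 genes were mainly fibroblast genes. Fibroblast-like cells held 80.1% of all UMIs of the 10 genes in the colotomy library and 72.3% in the sham library. Cells of unnamed clusters, 296 in the colotomy and 5968 in the sham library, held 1.25% and 4.93% of them. In the sham library they held 12.8% of the Loxl3 and 10.3% of the P4ha1 UMIs. One such cluster (55 colotomy and 172 sham cells) had 9 of 9 fibroblast markers but erythroid markers as well. In each library 9 of the 10 genes had their highest level in fibroblast-like cells, among 13 named classes with at least 50 cells in the colotomy library and 15 in the sham library. The exception in the colotomy library was Loxl3, for which smooth muscle-like cells had 66.9 CPM from 5 UMIs against 55.1 CPM in fibroblast-like cells, with overlapping intervals. In the sham library it was P4ha3, which stood at 5.01 CPM in neutrophil-like cells from 1 UMI and at 3.29 CPM in fibroblast-like cells, again with overlapping intervals. Where fibroblast-like cells came first, their interval still overlapped that of the next class for P4ha1, P4ha2 and P4ha3 in the colotomy library. The same held for P4ha1 in the sham library. Colotomy P4ha1 stood at 126 CPM in fibroblast-like cells (114 to 140) and 106 CPM in vascular endothelial-like cells (59.5 to 175).

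All 10 genes were at a higher level in colotomy than in sham fibroblast-like cells, each at or above 1.5-fold, where 16.3% of the 14532 genes measured in these cells were that much higher and 19.7% that much lower. They summed to 4213 CPM in colotomy cells (95% Poisson interval 4138 to 4288) and 1885 CPM in sham cells (1857 to 1913). The median log2 ratio of colotomy over sham was 1.19 for the 10 genes and -0.04 for all measured genes. At 2-fold 6 of the 10 genes were higher and 8.57% of all genes. P4ha3 and Plod2 had the largest ratios and Loxl3 and P4ha1 the smallest. Here and below, intervals are 95% and cover counting error only, and a fold is not a test.

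**Figure D1:**
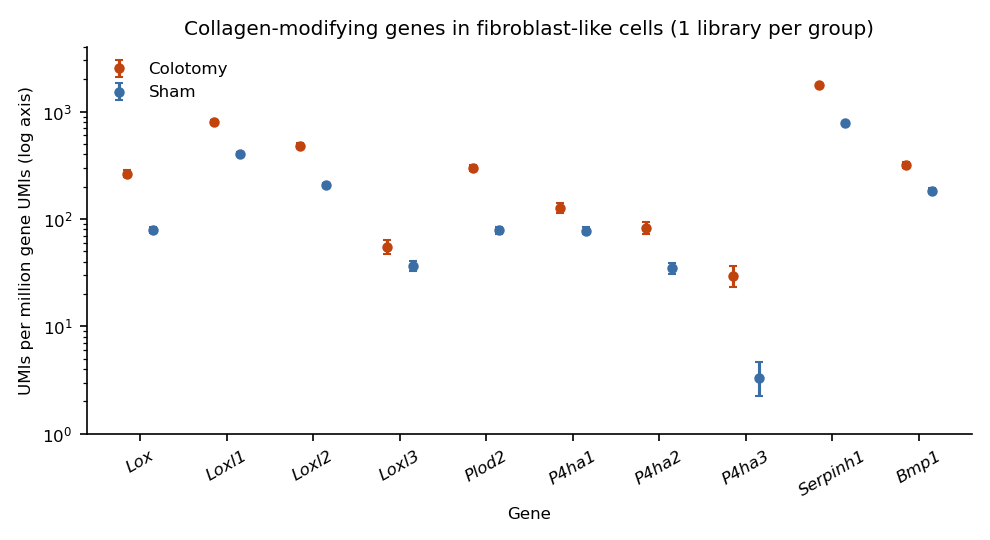
Level of each of the 10 genes in fibroblast-like cells, in CPM on a log axis, in the colotomy library (left point of each pair, red) and the sham library (right point, blue). Bars are 95% Poisson intervals, which cover counting error only; the pairs lie furthest apart for P4ha3 (29.3 and 3.29 CPM) and closest for Loxl3 (55.1 and 36.8 CPM).

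The fibroblast-like cells of the 2 libraries were not of the same makeup, which bears on every ratio given for them. In the colotomy library 54.1% of them lay in cluster 10, led by Ptn and Timp1, and in the sham library 3.96%. Cluster 4, marked by Inmt, held 461 of the 3537 colotomy cells and 2561 of the 5407 sham cells (47.4%). Markers of other cells moved as well: the 8 smooth muscle markers summed to 444 CPM in colotomy and 92.1 CPM in sham fibroblast-like cells, and the 6 neutrophil markers to 201 and 16.5 CPM, with none of either list at 0, while the 7 B cell markers summed to 425 and 1812 CPM. Their part in the levels of the 10 genes was not tested. In the 398 colotomy and 1553 sham fibroblast-like cells with Y-linked UMIs but none of Xist, 9 of 10 genes were past 1.5-fold, where 18.1% of all genes were, and the median log2 ratio was 1.24.

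The hydroxylases act early in the pathway, and the largest 2 ratios belonged to 2 of them, P4ha3 and Plod2. Plod2 encodes lysyl hydroxylase 2, which hydroxylates lysines of the collagen telopeptides and so sets the kind of crosslink formed (GRCm38 chromosome 9, 92542223 to 92608428). It had 864 UMIs or 298 CPM in colotomy and 737 UMIs or 78.3 CPM in sham fibroblast-like cells, a ratio of 3.80 (3.44 to 4.20). P4ha3, a catalytic subunit of prolyl 4-hydroxylase (chromosome 7, 100285520 to 100319699), had 85 UMIs in the colotomy library and 31 in the sham library, although the sham fibroblast-like cells held 9412799 gene UMIs and the colotomy cells 2901477. That is 29.3 CPM in colotomy and 3.29 CPM in sham cells, a ratio of 8.90 with the widest interval of the 10 genes, 5.83 to 13.9.

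The other catalytic subunits moved less. P4ha2 (chromosome 11, 54100095 to 54131665) had 82.7 CPM in colotomy and 34.6 CPM in sham fibroblast-like cells, a ratio of 2.39 (2.01 to 2.83). P4ha1 (chromosome 10, 59323296 to 59373304) had 126 CPM in colotomy and 77.8 CPM in sham cells, a ratio of 1.62 (1.43 to 1.84). The interval of P4ha3 thus lay above those of both P4ha1 and P4ha2, and that of P4ha1 lay below that of P4ha2.

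Promoters of the catalytic subunits are shown because this family spread most in its ratios, and because P4ha1 and P4ha2 are known targets of the hypoxia-inducible factors. Of the 10 genes, 4 had a promoter sequence in the RefSeq table used here (GRCm38.p6): these 3 and Serpinh1. The 250 bases before the start annotated by RefSeq are given 5′ to 3′ on the plus strand, from chr10:59323046-59323295 for P4ha1, chr11:54100674-54100923 for P4ha2 and chr7:100285270-100285519 for P4ha3. Capitals mark matches, on either strand, of ACGTG or GCGTG, the core words to which hypoxia-inducible factors bind. For P4ha2 the RefSeq start lies downstream of the GENCODE gene start given above, so this window lies inside the gene as GENCODE annotates it.
P4ha1: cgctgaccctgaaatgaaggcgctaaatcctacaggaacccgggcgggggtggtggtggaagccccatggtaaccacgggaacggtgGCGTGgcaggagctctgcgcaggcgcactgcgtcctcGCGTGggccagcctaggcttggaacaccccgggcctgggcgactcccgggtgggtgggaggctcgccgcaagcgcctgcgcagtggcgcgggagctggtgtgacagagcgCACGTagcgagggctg
P4ha2: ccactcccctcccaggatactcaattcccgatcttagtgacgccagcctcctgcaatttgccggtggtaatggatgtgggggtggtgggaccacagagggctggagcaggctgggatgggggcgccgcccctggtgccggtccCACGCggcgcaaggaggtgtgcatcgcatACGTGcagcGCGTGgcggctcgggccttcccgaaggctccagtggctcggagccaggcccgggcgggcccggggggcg
P4ha3: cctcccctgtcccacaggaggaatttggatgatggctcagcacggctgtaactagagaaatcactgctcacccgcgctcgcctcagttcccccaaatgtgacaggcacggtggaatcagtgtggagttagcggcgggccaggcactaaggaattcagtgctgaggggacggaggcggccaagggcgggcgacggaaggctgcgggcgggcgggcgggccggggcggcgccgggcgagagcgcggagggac
P4ha1 and P4ha2 each held 1 match of ACGTG and 2 of GCGTG, none overlapping another. P4ha3 held 0 of either word in this window, and the promoter of Serpinh1 held 1 of ACGTG and 0 of GCGTG. Of all 27025 promoters of this length, 38.6% held at least 1 of them. The windows of P4ha1, P4ha2, P4ha3 and Serpinh1 were 69.6%, 70%, 67.2% and 63.6% G and C. The median over all promoters was 52%, so that share is not one for promoters of like base content. A match is a run of letters and not a binding site, and a link between matches and ratios was not tested.

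Serpinh1, which encodes the collagen chaperone HSP47 (chromosome 7, 99345376 to 99353239, minus strand), had the most UMIs and so the narrowest intervals. It had 5101 UMIs or 1758 CPM in colotomy fibroblast-like cells (1710 to 1807) and 7311 UMIs or 777 CPM in sham cells (759 to 795), a ratio of 2.26. It was also the gene most often seen per cell. After each cell was thinned to 500 UMIs, 54.9% of colotomy and 31.1% of sham fibroblast-like cells held a Serpinh1 UMI (68.3% and 63.9% before thinning), with a background at the same depth of 1.84% and 0.580% among lymphocytes (cells named T or B cell-like). Its 250-base promoter held 0 matches of the heat shock words GAANNTTC or TTCNNGAA, which read the same on both strands and occurred in 12.9% of all promoters; among the other 3 promoters P4ha2 held 1 match of TTCNNGAA.

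Bmp1, whose product removes the C-propeptides of the fibrillar procollagens and also activates lysyl oxidase by cleavage (chromosome 14, 70474558 to 70520234, minus strand), had 318 CPM in colotomy and 184 CPM in sham fibroblast-like cells. The ratio of 1.73 (1.60 to 1.88) was among the smaller of the 10.

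The lysyl oxidases themselves did not move as one. Lox, the founding member, which crosslinks collagen and elastin, had 766 UMIs or 264 CPM in colotomy and 746 UMIs or 79.3 CPM in sham fibroblast-like cells, a ratio of 3.33 (3.01 to 3.69). Loxl2, which acts on basement membrane collagen as well as on fibrillar collagen (chromosome 14, 69609068 to 69695834), had 480 and 209 CPM in colotomy and sham cells, a ratio of 2.30 (2.14 to 2.46). Loxl1, tied to elastic fibre assembly (chromosome 9, 58287738 to 58313186, minus strand), had 801 CPM in colotomy and 405 CPM in sham cells, a ratio of 1.98 (1.88 to 2.08). Loxl3, known in mice for a part in palate and spine development (chromosome 6, 83034173 to 83052562), had 55.1 CPM in colotomy and 36.8 CPM in sham cells. Its ratio lay at the 1.5-fold limit, with an interval of 1.24 to 1.81. The intervals of Lox and Loxl3 did not overlap each other or those of Loxl1 and Loxl2, so within the family Lox had the largest ratio and Loxl3 the smallest.

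More of these genes were seen per cell in the colotomy library. With every fibroblast-like cell thinned to 500 UMIs, at least 4 of the 10 genes were seen in 5.71% of those from the colotomy library (4.97% to 6.53%) and 0.573% of those from the sham library (0.390% to 0.813%). None of the 10 was seen in 17.2% of colotomy and 42.9% of sham cells. Higher levels of the single genes alone shift such shares, and whether the genes occurred together was not tested.

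The 3 main fibrillar collagen transcripts differed by more between the libraries than most of the 10 genes. Counted per 1000 UMIs of Col1a1, Col1a2 and Col3a1 together, the 10 genes had 147 UMIs in colotomy fibroblast-like cells (145 to 150) and 234 in sham cells (230 to 237). On this scale P4ha3 was higher in the colotomy library (1.02 and 0.408 per 1000, intervals apart). Plod2 (10.4 and 9.70) and Lox (9.23 and 9.82) had overlapping intervals. The other 7 genes were lower in the colotomy library, Serpinh1 at 61.5 per 1000 against 96.3 in the sham library and Loxl3 at 1.93 against 4.56. All collagen genes together took 3.80% of UMIs in colotomy and 1.35% in sham fibroblast-like cells.

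Cells with more Col1a1 had more of the 10 genes in either library. Each fibroblast-like cell was thinned to 500 UMIs and placed in a bin of 0, 1, 2 to 3, 4 to 7, or 8 or more Col1a1 UMIs, and levels were then read from all its UMIs. The top bin held 879 colotomy cells (24.9%) and 45 sham cells (0.832%), and the zero bin 456 and 2897. The summed level of the 10 genes was 5743 CPM in the top bin and 2545 CPM in the zero bin of the colotomy library, and 4689 and 1562 CPM in those of the sham library. Between top and zero bin, 9 of 10 genes were at least 1.5-fold higher in the colotomy library (19.1% of all measured genes were) with a median log2 ratio of 1.28, and 10 of 10 in the sham library (22.1%) with a median of 1.62. Loxl1 was the exception in the colotomy library, at 902 CPM in the top bin and 608 CPM in the zero bin, a log2 ratio of 0.57.

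P4ha3 was lowest in the bins with the least Col1a1. In the colotomy library it had 0 UMIs in the zero bin, where 3 counts, the floor used for a count of 0, would be 7.93 CPM, then 7.44 CPM at 1, 20.2 at 2 to 3, 26.4 at 4 to 7 and 65.1 CPM at 8 or more Col1a1 UMIs. In the sham library the same bins gave 1.92, 2.88, 6.91, 8.06 and 18.6 CPM, the last from 2 UMIs. Lox and Plod2 then parted. Lox at 0, 1, 2 to 3, 4 to 7 and 8 or more Col1a1 UMIs stood at 166, 188, 182, 282 and 397 CPM in the colotomy library and at 54.1, 71.6, 124, 236 and 392 CPM in the sham library. Its log2 ratio between the libraries was thus 1.62 in the zero bin (1.21 to 2.02) and 0.02 in the top bin (-0.45 to 0.52). Plod2 in the same bins stood at 159, 179, 246, 359 and 409 CPM in the colotomy library and at 66.2, 77.3, 92.9, 148 and 270 CPM in the sham library. Its log2 ratio was 1.26 in the zero bin, 1.28 at 4 to 7 and 0.60 in the top bin, where the sham value rests on 29 UMIs.

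**Figure D2:**
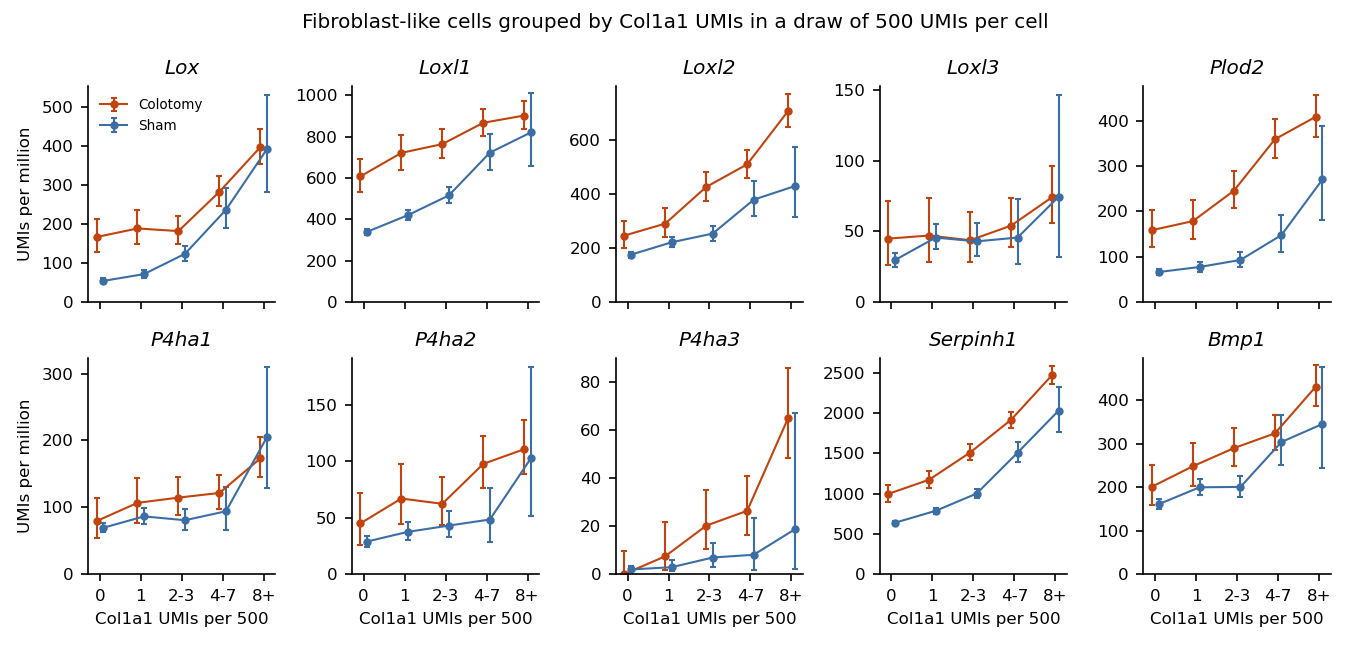
Level of each of the 10 genes, in CPM, in fibroblast-like cells grouped by their Col1a1 UMIs in a draw of 500 UMIs per cell, for the colotomy library (red) and the sham library (blue), with 95% Poisson intervals. Levels go up from left to right in both libraries for most genes; the 2 lines meet at the right for Lox (397 and 392 CPM) and stay apart for Plod2 up to the bin of 4 to 7 (359 and 148 CPM).

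When the Col1a1 bins of the colotomy library were weighted as in the sham library, the ratios were smaller and all 10 stayed above 1. At these matched weights 6 of 10 genes were at least 1.5-fold higher in the colotomy library (16.9% of all measured genes were) and the median log2 ratio was 0.64, against -0.01 for all genes. Plod2 had a matched log2 ratio of 1.25 (1.03 to 1.47) and Lox of 1.20 (0.97 to 1.42). P4ha3 had 0.98 (0.19 to 1.77) with its colotomy bin of 0 UMIs entered as 0, and 1.72 with that bin at the floor of 3 counts, so its place relative to Plod2 and Lox is not settled. Loxl1 had 0.73, P4ha2 0.69, Serpinh1 0.59, Loxl2 0.51 and Bmp1 0.34. For Loxl3 (0.32, -0.12 to 0.77) and P4ha1 (0.27, -0.02 to 0.57) the interval held 0.

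The matching was coarse, since Col1a1 itself still had a log2 ratio of 0.51 after it. With cells thinned to 1000 UMIs, which left 720 of 3537 colotomy and 4391 of 5407 sham cells, Col1a1 was closer at 0.33, and 3 of 10 genes were past 1.5-fold, where 20.2% of all genes were, with a median of 0.27. P4ha1 then stood at -0.07 (-0.69 to 0.55). The 3 genes were Plod2 at 1.17 (0.79 to 1.55), P4ha3 at 0.98 (-0.10 to 2.07) and Lox at 0.94 (0.48 to 1.39). P4ha3 had 0 UMIs in 2 of the colotomy bins at this depth, and with these at the floor its log2 ratio was 3.67. Among fibrillar collagens, 2 of 10 measured genes were past 1.5-fold at the matched weights of 500 UMIs, with a median of 0.48.

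Within single clusters of fibroblast-like cells the 10 genes differed by cluster. In cluster 3, marked by Pi16 (996 colotomy and 1699 sham cells), 7 of 10 genes were at least 1.5-fold higher in the colotomy library, where 16.1% of all genes were, and the median log2 ratio was 0.88. Lox had 152 CPM in colotomy and 35.4 CPM in sham cells of this cluster, a ratio of 4.28 (3.29 to 5.56), and Plod2 173 and 53.0 CPM. In cluster 5, marked by Adamdec1 (167 and 933 cells), 9 of 10 genes were past 1.5-fold (20% of all genes), with a median of 0.96, though Loxl3 and P4ha2 rested on 6 colotomy UMIs each and P4ha3 on 5. The gene below the limit there was Bmp1, at 198 CPM in colotomy and 145 CPM in sham cells.

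Cluster 4, marked by Inmt (461 and 2561 cells), showed the least difference. Of the 9 genes measured there, only Plod2 was past 1.5-fold, where 16% of all genes were, at 121 CPM in colotomy and 62.5 CPM in sham cells (ratio 1.93, 1.37 to 2.67). Lox had 90.6 CPM in colotomy and 93.7 CPM in sham cells of cluster 4, and Loxl3 27.5 and 37.0 CPM, each with an interval of the ratio that held 1. The median log2 ratio over the 9 genes was 0.26.

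Cluster 10 (1913 and 214 cells) had the highest summed level in both libraries, 5000 CPM in colotomy and 3694 CPM in sham cells, while the sham cells of clusters 3, 4 and 5 had 2051, 1631 and 1670 CPM. Within it 3 of 10 genes were past 1.5-fold, where 19.6% of all genes were, and the median log2 ratio was 0.38. P4ha3 had 42.7 CPM in colotomy and 6.92 CPM in sham cells of cluster 10, from 70 and 3 UMIs, a ratio of 6.18 (2.03 to 30.7). Plod2 had 399 and 189 CPM (ratio 2.11, 1.68 to 2.69) and Loxl2 584 and 337 CPM (1.73, 1.46 to 2.08). Lox had 364 CPM in colotomy and 302 CPM in sham cells, a ratio of 1.20 whose interval held 1 (0.99 to 1.47). Plod2 was past 1.5-fold in each of the 4 clusters, and P4ha3 in the 3 where it was measured. With clusters weighted as in the sham library, the median log2 ratio over the 10 genes was 0.67 and 7 of 10 were past 1.5-fold, where 15% of all genes were.

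**Figure D3:**
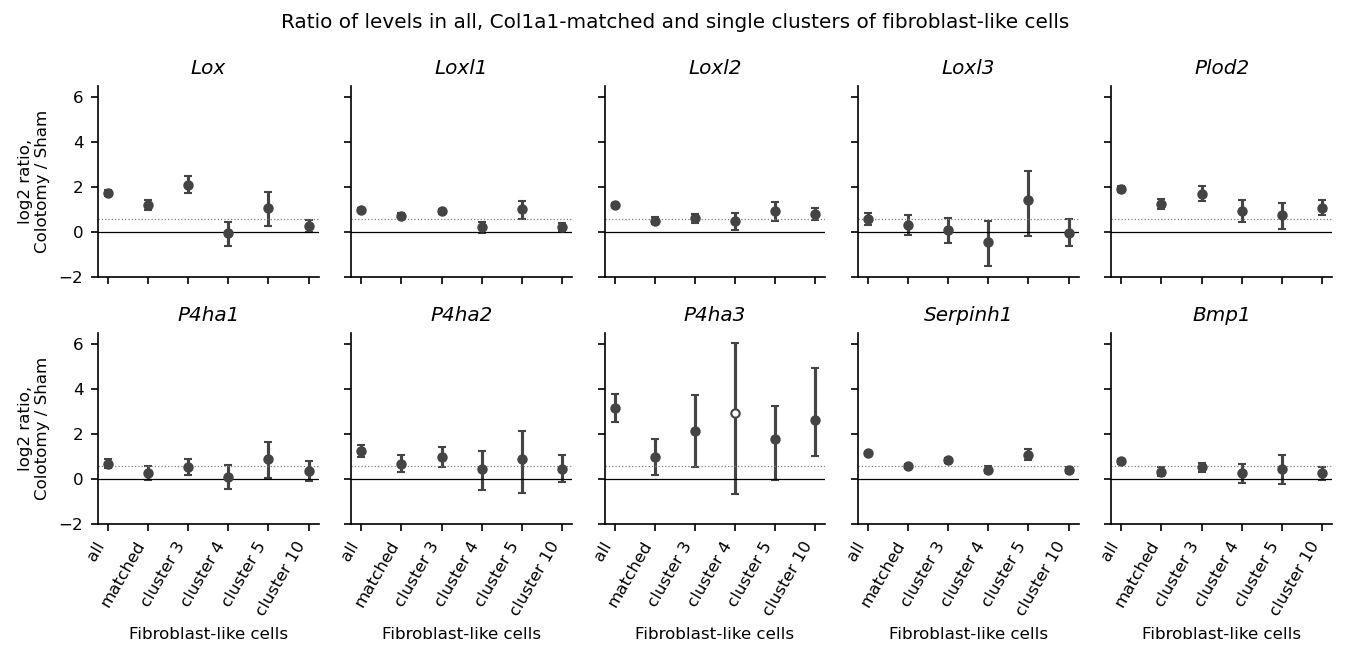
Log2 ratio of the level in the colotomy library over that in the sham library for each of the 10 genes, in all fibroblast-like cells, at matched Col1a1 bins and within clusters 3, 4, 5 and 10, with 95% counting intervals (a Col1a1 bin with 0 UMIs of a gene entered as 0); the dotted line marks 1.5-fold and the open point a gene with under 10 UMIs over both libraries. Points of Plod2 lie above the dotted line in every column, from 0.75 in cluster 5 to 1.93 in all cells, while points of Lox lie near 0 in cluster 4.

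Outside fibroblasts the summed level of the 10 genes was lower, and in the classes described here it was higher in the colotomy library than in the sham library. Mesothelial-like cells, which line the peritoneum, came next, with a summed 1864 CPM in the colotomy library and 860 CPM in the sham library, then vascular endothelial-like cells with 1573 and 457 CPM, their intervals overlapping in the colotomy library and apart in the sham library. Serpinh1 made up most of the endothelial counts, at 836 CPM in colotomy and 243 CPM in sham cells. Macrophage-like cells had a summed 445 CPM in colotomy and 78.5 CPM in sham cells, epithelial-like cells 449 and 107 CPM, and goblet-like cells 327 and 85.4 CPM. Neutrophil-like cells had 1367 CPM in the colotomy library and 391 CPM in the sham library.

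Counts of genes at least 1.5-fold higher in the colotomy library were 6 of 9 measured in mesothelial-like cells (22.8% of all genes), 8 of 9 in vascular endothelial-like cells (24.6%) and 8 of 9 in macrophage-like cells (21.3%). In epithelial-like cells they were 8 of 9 (23.8%), in goblet-like cells 9 of 9 (14.8%) and in neutrophil-like cells 9 of 9 (31.1%). In monocyte-like cells they were 5 of 5 (20.8%), in plasma cell-like cells 3 of 4 (20.2%) and in B cell-like cells 4 of 8 (28.6%), of which the colotomy library held 119. In neutrophil-like cells Loxl3 and P4ha2 rested on 1 sham UMI each, and their intervals and that of P4ha1 held 1. Some other classes also counted genes whose interval held 1, such as P4ha2 in macrophage-like cells (0.79 to 9.07). The 4 in B cell-like cells were Lox, Loxl1, Loxl2 and Serpinh1, from 1, 2, 1 and 4 colotomy UMIs. Of these only Serpinh1 had an interval above 1 (1.20 to 11.6). The other 4 genes measured in B cell-like cells had 0 UMIs in the colotomy library, P4ha1 among them with 203 in the sham library. In vascular endothelial-like cells P4ha2 was the exception, at 14.2 CPM in colotomy and 18.9 CPM in sham cells, from 2 and 35 UMIs.

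Fibroblast transcripts moved in the same classes. Dcn, a fibroblast marker, stood at 729 CPM in colotomy and 92.4 CPM in sham macrophage-like cells, and Col1a1 at 912 and 27.3 CPM. In neutrophil-like cells Dcn was at 3558 CPM in the colotomy library and 1263 CPM in the sham library. In mesothelial-like cells Dcn was at 8934 CPM in colotomy and 5501 CPM in sham, beside 8882 and 6868 CPM in fibroblast-like cells. Col1a1 there was at 1623 and 432 CPM, beside 10544 and 1801 CPM. Vascular endothelial-like cells had Dcn at 2579 and 753 CPM and Col1a1 at 1934 and 198 CPM. In lymphocytes the 10 genes summed to 125 CPM in the colotomy library, from 14 UMIs, and 46.9 CPM in the sham library, from 971. Free RNA and cells captured together can give such counts, and their part in the levels of the 10 genes outside fibroblasts was not tested.

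P4ha1 was spread over more cell types. Fibroblast-like cells held 62.4% of its UMIs in the colotomy library and 39.6% in the sham library, while for each of the other 9 genes they held at least 77.2% and 64.6%. It made up 43 of the 250 UMIs of the 10 genes in colotomy macrophage-like cells (17.2%, exact binomial interval 12.7% to 22.5%) and 140 of 282 in sham macrophage-like cells (49.6%, 43.7% to 55.6%). In fibroblast-like cells it made up 2.99% of them in the colotomy library and 4.13% in the sham library. In sham B cell-like cells the share was 203 of 633 UMIs, or 32.1%. Prolyl 4-hydroxylase also modifies proteins other than fibrillar collagen. The level of P4ha1 itself was 76.5 CPM in colotomy and 39.0 CPM in sham macrophage-like cells, and 57.9 and 18.9 CPM in monocyte-like cells.

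**Figure D4:**
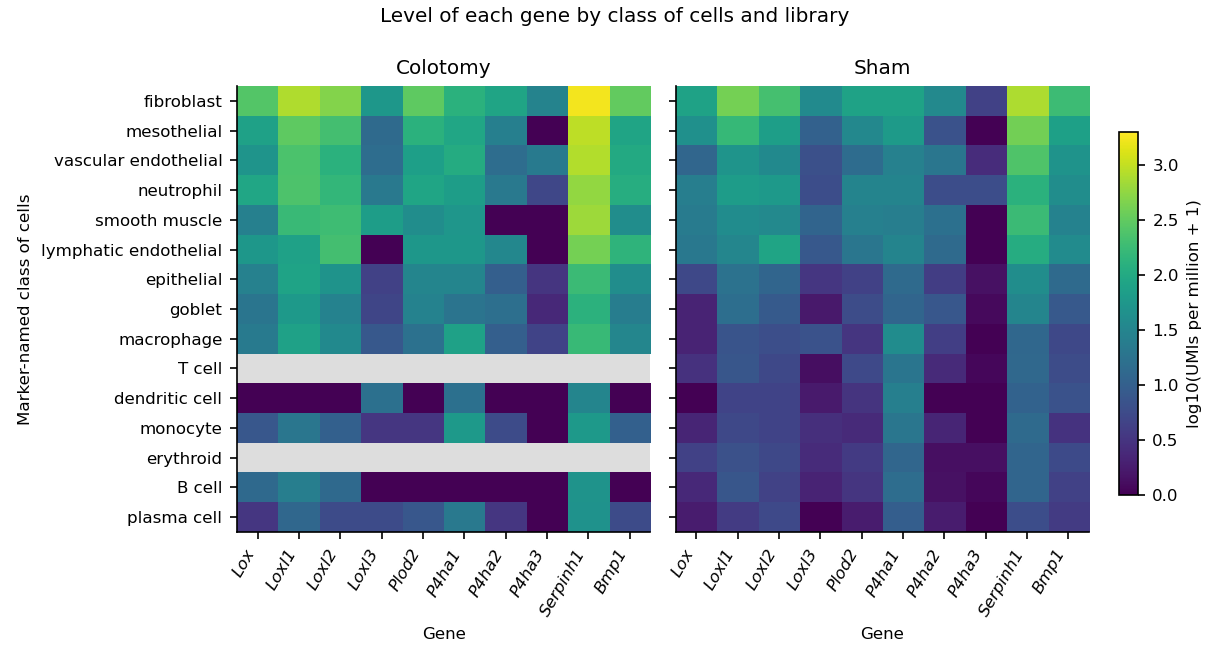
Level of each of the 10 genes by marker-named class of cells, as log10 of CPM plus 1, in the colotomy library (left) and the sham library (right); grey rows are classes with fewer than 50 cells in that library. Fibroblast-like cells form the brightest row in both panels, with Serpinh1 at 1758 and 777 CPM, and the column of P4ha1 stays visible in macrophage-like and monocyte-like cells.

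Across 28 values (named classes in each library), the genes most like the summed 10 genes by Pearson's r of log2(CPM + 1), searched among 4340 genes, were Bgn (0.985), Sparc (0.981), Fstl1 (0.979), Col3a1 (0.979), Col6a2 (0.975) and Mgp (0.975). For single genes the closest were Meis1 for Loxl3 (0.883) and Col16a1 for Plod2 (0.964). They were Tbc1d2b for P4ha1 (0.921), Lrrn4cl for P4ha2 (0.913), Pi16 for P4ha3 (0.796), Sparc for Serpinh1 (0.991) and Nid1 for Bmp1 (0.978). The 28 values share 2 libraries and their depths and span stromal and other cells together.

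Other genes of the pathway were read in the same fibroblast-like cells. Of 14 genes listed as other collagen hydroxylases, glycosyltransferases and their partners, 9 were at least 1.5-fold higher and 2 lower in the colotomy library. Of all measured genes 16.3% were higher and 19.7% lower. The median log2 ratio of the list was 0.65. The list also holds Egln1, a hydroxylase of the hypoxia-inducible factors and not of collagen, at 59.6 CPM in colotomy and 51.7 CPM in sham cells (0.20). Crtap, a partner of prolyl 3-hydroxylase, had 171 CPM in colotomy and 74.0 CPM in sham cells (log2 ratio 1.20), and Fkbp14, a foldase of collagen, 71.3 and 33.3 CPM (1.10). Colgalt2, a collagen galactosyltransferase, was lowest, with 4 UMIs in the colotomy library and 40 in the sham library (-1.62). The other lysyl hydroxylases had smaller ratios than Plod2: Plod1 stood at 48.9 CPM in colotomy and 31.4 CPM in sham cells (0.64), and Plod3 at 68.2 and 43.8 CPM (0.64). These 2 and P4hb, the shared beta subunit of prolyl 4-hydroxylase at 541 and 336 CPM (0.69), were named after their values were seen.

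Of 18 measured genes of procollagen processing and secretion, 12 were higher and 1 lower (16.3% and 19.7% of all genes), with a median of 0.84. Adamts3, an N-propeptidase, had 26 UMIs in each library, or 8.96 CPM in colotomy and 2.76 CPM in sham cells (log2 ratio 1.70). Sparc, a collagen-binding protein, had 7902 CPM in colotomy and 3405 CPM in sham cells (1.21). Pcolce2, an enhancer of C-propeptide removal, was at 152 CPM in colotomy and 245 CPM in sham cells (-0.69).

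Among 10 measured fibrillar collagens 8 were higher and 1 lower (16.3% and 19.7% of all genes), with a median of 1.40. Col11a1 had 58.6 CPM in colotomy and 1.70 CPM in sham cells (log2 ratio 5.11) and Col24a1 40.0 and 2.97 CPM (3.75). The lower one was Col11a2, with 0 UMIs in the colotomy library and 19 in the sham library, whose ratio was taken against a floor of 3 counts. Of 10 substrates and partners of the lysyl oxidases other than collagen, 8 were higher and 0 lower, beside the same shares of all genes, with a median of 1.34. Fmod, fibromodulin, which guides crosslinking, had 111 CPM in colotomy and 8.82 CPM in sham cells (3.66), Mfap4 531 and 140 CPM (1.93), and Fbln5, a scaffold of elastic fibres, 160 and 179 CPM (-0.16).

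P4ha1, P4ha2 and Plod2 are known targets of the hypoxia-inducible factors, so a list of other genes that respond to low oxygen was read too. Of these 14 genes 1 was at least 1.5-fold higher and 3 were lower in the colotomy library, where 16.3% of all genes were higher and 19.7% lower. Their median log2 ratio was -0.06, against -0.04 for all genes. The higher one was Car9, from 7 UMIs in the colotomy library and 12 in the sham library (0.92), and the next was Bhlhe40 at 50.0 CPM in colotomy and 37.3 CPM in sham cells (0.42). The lowest was Egln3, with 1 UMI in the colotomy library and 16 in the sham library (-2.30). Immediate early genes, a sign of tissue digestion among other things, were listed together with the heat shock genes Hspa1a and Hspa1b. Of these 16 genes 3 were higher, a share close to that of all genes, and 0 lower, with a median of 0.27. Ier3 had 237 UMIs in the colotomy library and 104 in the far deeper sham library (2.89), Hspa1b stood at 158 CPM in colotomy and 84.4 CPM in sham cells (0.90), and Egr1 at 294 and 416 CPM (-0.50).

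**Figure D5:**
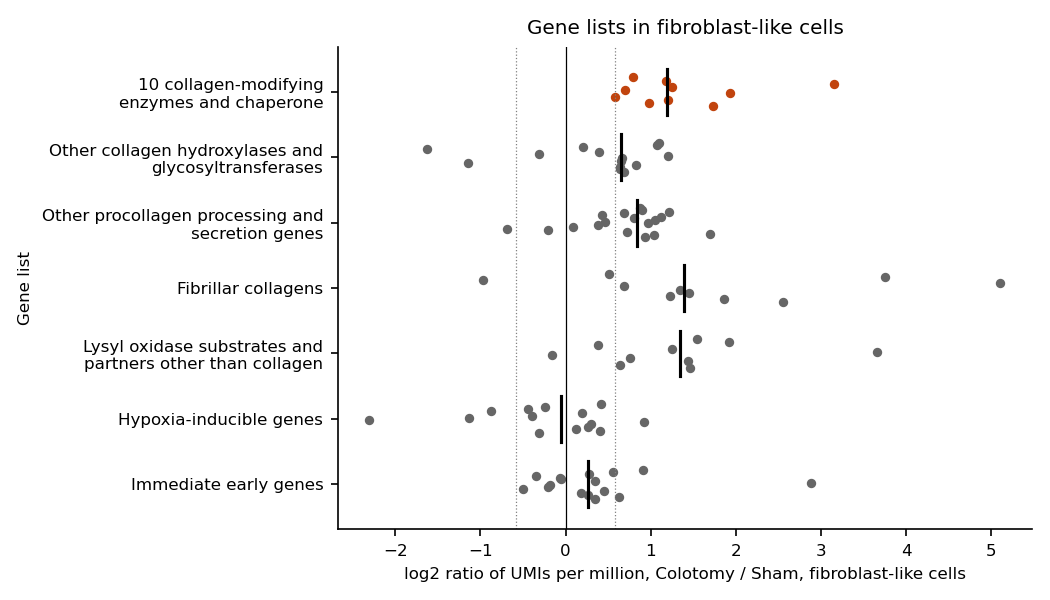
Log2 ratio of CPM in colotomy over sham fibroblast-like cells for the 10 genes (red, top row) and for the measured genes of 6 other lists (grey), each point 1 gene, with the median of the list as a black bar and 1.5-fold as dotted lines. All 10 red points lie at or beyond the right dotted line with a median of 1.19, and the hypoxia-inducible genes spread around -0.06.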

How the data were processed

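Matrices of single-cell RNA counts were read for 1 colotomy and 1 sham library. They hold raw UMI counts per barcode made by the authors with Cell Ranger 6.0.0, per the file headers. Per the submitters' processing notes the build was mm10 and STAR 2.5.1b was used, with Seurat and Space Ranger also listed. Cell calling settings are not given in the sources used here.

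Barcodes with at least 500 gene UMIs, 300 genes and under 20% mitochondrial UMIs were kept. Scrublet called 0 doublets in either library and so did not work here, and no doublets were removed. Cells were clustered with scanpy 1.11.5 (Leiden, resolution 1) without the 10 genes and 45 collagen genes. Clusters took a name from 21 marker lists. The limit that at least 0.5 of the markers of its list count in a cluster was set after the clusters were seen. A rule not planned beforehand also left a cluster unnamed where a rival list of another lineage had at least 0.5 of that share. A cluster was also left unnamed where another list had more markers among its 10 leading genes. Cluster 22, with 7 of 7 T cell markers and Cd8a among its leading genes, stayed unnamed (22 colotomy and 2868 sham cells). The T cell-like class therefore lacks these cells. Sham cells were deeper than colotomy cells, so shares of cells were read after thinning to 500 UMIs.

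UMIs were summed per class and library and given as CPM with exact Poisson intervals, ratios with exact conditional binomial intervals (scipy 1.17.1), all at 95%. Genes needed 10 UMIs over both libraries and classes 100 cells in each for a ratio. A total of 0 took a floor of 3 counts. Matched ratios weighted Col1a1 bins by their sham share of UMIs, with a bin of 0 UMIs entered as 0. With 1 library per operation no test was made. The calculations were tested on simulated data. Gene positions came from GENCODE M21 and promoters from RefSeq. All 10 genes are named. The genes closest in pattern to Lox, Loxl1 and Loxl2 are not reported here. Each pathway list also gives its top 2 genes and its bottom 1 by log2 ratio. The 10 genes and all lists were chosen with earlier results of these data known.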

Additional observations from a re-analysis of the deposited data

How the results depend on the processing

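All 10 genes had a positive log2 ratio in fibroblast-like cells under each of the 12 settings that gave one, the lowest being 0.39 for Loxl3 and 0.58 for P4ha1, and none of these changed direction. Within single clusters, Lox (-0.05) and Loxl3 (-0.43) were below 0 in cluster 4 and Loxl3 (-0.03) in cluster 10, and P4ha1 (-0.07) was below 0 at matched Col1a1 after thinning to 1000 UMIs. No paired analysis was possible because each operation has 1 library. At a fold of 2 instead of 1.5, 6 of the 10 genes were higher, 2 at matched Col1a1, and 3, 5, 0 and 1 genes of the hydroxylase, processing, hypoxia and immediate early lists. Within cluster 4 the count was 1 and the median log2 ratio 0.26, within cluster 10 they were 3 and 0.38, and the medians were 0.88 in cluster 3, 0.96 in cluster 5 and 0.67 with clusters weighted as in the sham library; these were chosen after seeing the data, as was binning on cluster and Col1a1 together, with a matched median of 0.48. Bins with 0 UMIs at the floor of 3 counts, also added then, left the matched count at 6 and the median at 0.64, with P4ha3 at 1.72. Thinning to 1000 UMIs gave 3 genes, a matched median of 0.27 and a colotomy top-over-zero median of 1.83. With barcodes of 1 dominant hashtag the median was 1.36, the sham top-over-zero median 1.03 and the monocyte count 3. That setting left 3105 colotomy fibroblast-like cells with hashtag 1 and 5 with hashtag 2, against 12 and 1244 in the sham library. It therefore cannot tell tissue from operation. Without the 10% highest Scrublet scores the median was 1.02 (8 of 10 genes higher), the top-over-zero medians 1.06 (colotomy) and 1.35 (sham), and 5 hydroxylases were higher. Scaling by the median ratio over genes gave 1.45 (colotomy) and 1.36 (sham). At resolution 2 the matched median was 0.79 and the colotomy top-over-zero median 1.05. With at least 1000 UMIs and 500 genes that median was 1.48, with 2 hypoxia and 6 immediate early genes higher. Clustering with the 10 genes and collagens kept gave 2 hypoxia genes, and 7 of the 10 genes in plasma cell-like cells. Naming each cell by its highest marker score gave 5 hydroxylases, 2 hypoxia genes, and 9, 8 and 9 of the 10 genes in B cell-like, monocyte-like and plasma cell-like cells. Without the filter on low counts monocyte-like and plasma cell-like cells had 8 each, and among cells that had Y-linked but lacked Xist UMIs the epithelial-like ones had 5, while fibroblast-like cells kept a median of 1.24. Except where given above, the share of all genes past the fold was not computed at these settings. Their counts therefore have no background to be read against. The causes of these changes were not tested.

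The intervals cover counting error only. UMIs are few for P4ha3 in sham cells and for most of the 10 genes outside fibroblast-like cells, where a difference was often not detectable at this depth.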

Other observations

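Immediate early genes had another distribution over the fibroblast clusters than the 10 collagen-modifying genes. In cluster 10, 15 of the 16 genes of their list, which includes Hspa1a and Hspa1b, were at least 1.5-fold higher in the colotomy library. Their median log2 ratio was 0.80, and 19.6% of all genes were that much higher. Of the 10 collagen-modifying genes 3 were and of 9 measured fibrillar collagens 2, shares near that of all genes. In clusters 3, 4 and 5 the immediate early genes past that fold numbered 2, 5 and 2 of 16 (16.1%, 16% and 20% of all genes), with medians of 0.10, 0.24 and 0.10. In macrophage-like and monocyte-like cells they numbered 11 of 16 each (21.3% and 20.8% of all genes), with medians of 1.02 and 1.11. Differences between clusters and classes were not tested.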
